A study of Mus musculus with 8 samples.

Results

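The calnexin and calreticulin cycle, by which the endoplasmic reticulum (ER) folds glycoproteins, was followed through 8 genes in the dentate gyrus (DG) of mice lacking Derlin-1 or Derlin-2. The members were chosen by name: Calr, Canx, Uggt1, Uggt2, Ganab, Prkcsh, Mogs and Man1b1. Every probe whose symbol in the array annotation was one of these names was taken, which gave 19 of the 56605 probes on the array. Of the 19 probes, 18 passed the filter on dim probes, for which any 1 of the groups had to read well above background on both of its arrays. All 8 genes had a kept probe, out of 19900 gene symbols with one.

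Most secreted and membrane proteins receive a branched sugar chain as they enter the ER, and the chain carries glucose residues at its tip. Glucosidase I removes the outermost glucose and glucosidase II the next, which leaves a chain with a single glucose. The membrane-bound lectin calnexin and its soluble relative calreticulin bind that form and hold the protein while it folds. When glucosidase II takes the last glucose, the protein is released. UGGT, the folding sensor, puts a glucose back on a protein that is still misfolded, so that it binds the lectins again. A protein that fails repeatedly has mannose residues trimmed, which marks it for ER-associated degradation (ERAD), the route to the proteasome in which Derlins act at the ER membrane. Several chaperone genes of the ER are transcribed more strongly when misfolded proteins accumulate, through an ER stress response element (ERSE) in their promoters.

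The samples were DG total RNA from male C57BL/6 mice of 8 to 9 weeks of age, hybridised to 1-colour arrays, with 2 arrays in each of 4 groups. In the Derlin-1 line, control mice were Derlin-1flox/flox and Derlin-1 KO mice also carried Cre recombinase under the nestin promoter. In the Derlin-2 line, Derlin-2flox/flox controls were set against Derlin-2 KO mice made with the same Cre. The comparisons ask how the messages of this cycle stand in a brain region that lacks one Derlin or the other.

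Nestin-driven Cre acts in neural progenitors, so cells of other origin in the DG would keep the gene, and control mice were described by their floxed alleles alone, so that Cre and the deletion cannot be told apart. Derlin-1 samples were on one slide and Derlin-2 samples on another, so that a slide effect and a line effect cannot be told apart. On each slide controls held positions 1 and 2 and KO samples positions 3 and 4, so that a position effect and the KO effect cannot be told apart. In bulk tissue, fewer cells of a type and less RNA per cell cannot be told apart either. The labels do not say that the arrays of a group were separate animals, and p-values then measure only the spread between these samples, which may be technical.

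Between 67.6% and 70.8% of probes were well above background on each array, and arrays of a group correlated at 0.987 to 0.995 over probes. KO arrays correlated with controls of their line at 0.988 to 0.994, within that same range. Arrays of different lines, which sat on different slides, correlated at 0.966 to 0.985. The Derl2 signal was 11.36 and 11.22 on the Derlin-2 control arrays and 10.63 and 10.65 on the Derlin-2 KO arrays, a log2 difference of -0.65 (SE 0.10). That Derl2 probe lies in the last eighth of the array's rows, and the Derl1 probe lies outside them. Leaving those rows out took the probes called in the Derlin-2 line from 18 to 4. For Derl1 the Derlin-1 controls were at 10.86 and 10.76 and the Derlin-1 KO arrays at 10.56 and 10.65, a log2 difference of -0.20 (SE 0.10). Neither passed limma's adjusted p threshold of 0.05 (adjusted p = 0.257 for Derl2 and 0.9999 for Derl1), and where these probes lie relative to the deleted exons was not analysed here, so a probe outside them would check nothing. All 6 dentate granule neuron markers were well above background on all 8 arrays. Of the other cell types, choroid plexus markers had the largest mean difference in the Derlin-1 line, 0.33 on the log2 scale, with mean log2 levels of 7.15 to 7.77 in controls and 7.52 to 8.06 in KO arrays, and their part in the results below was not tested. That mean difference was 0.11 in the Derlin-2 line. The 6 granule neuron markers had mean differences of -0.13 for Derlin-1 and 0.07 for Derlin-2, and the 5 interneuron markers 0.13 and -0.11. The 4 CA pyramidal neuron markers had 0.11 and -0.10. Their mean log2 levels differed within the Derlin-1 groups, at 9.14 and 10.29 on the control arrays and 9.42 and 10.24 on the KO arrays. Replicate 1 was the lower in both groups. The mean of the granule neuron markers was the higher on replicate 1 in both, at 12.19 and 11.77 in controls and 12.02 and 11.69 in KO. Of the 5 microglia markers 0 were higher in Derlin-1 KO, with a mean of -0.14, and 3 in Derlin-2 KO, with a mean of 0.07. The part of these markers in the results was not tested either.

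The promoters of the 2 lectin genes are shown because they share an element that the other 6 members do not have. A full ERSE, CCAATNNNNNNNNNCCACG, was searched on both strands of the 250 bases before the annotated start of each gene in the RefSeq promoters of build GRCm38.p6. It was present in 37 of 32851 promoters (0.113%), and Calr and Canx were the 2 members of 8 that held it. The Calr window lies on the minus strand at chr8:84846932-84847181 and the Canx window on the minus strand at chr11:50325674-50325923. Both are written 5′ to 3′ along the gene, with the element in capitals. In Calr it reads on the opposite strand, as its reverse complement.

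Calr: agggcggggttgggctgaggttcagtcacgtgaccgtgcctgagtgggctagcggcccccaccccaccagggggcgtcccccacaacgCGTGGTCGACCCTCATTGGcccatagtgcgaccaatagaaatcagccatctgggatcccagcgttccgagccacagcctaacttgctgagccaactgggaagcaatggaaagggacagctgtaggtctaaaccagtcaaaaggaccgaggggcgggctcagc
Canx: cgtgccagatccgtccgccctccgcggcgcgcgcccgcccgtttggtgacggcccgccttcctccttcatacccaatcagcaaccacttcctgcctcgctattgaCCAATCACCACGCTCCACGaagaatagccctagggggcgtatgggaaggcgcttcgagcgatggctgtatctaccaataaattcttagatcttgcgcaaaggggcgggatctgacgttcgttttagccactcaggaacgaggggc

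The elements themselves, read in their own orientation with its fixed bases in capitals, are set beside that of Hspa5, which encodes the ER chaperone BiP.

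Calr: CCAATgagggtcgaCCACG
Canx: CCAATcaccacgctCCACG
Hspa5: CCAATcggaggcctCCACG

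The Calr element spans 144 to 162 bases before the start, the Canx element 127 to 145 bases and the Hspa5 element 47 to 65 bases. The 9 bases between the fixed parts differ among the 3 genes. The motif CCACG alone, which is part of the full element, occurred in 28.3% of all promoters and in 3 members, Calr, Canx and Uggt2. The related ERSE-II, ATTGGNCCACG, was in 0.0304% of promoters and the core of the UPR element, TGACGTGG, in 0.563%, and both were found in 0 of the 8 members. A match is a description of these letters and not evidence of binding.

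Calr encodes calreticulin, the soluble lectin, which also stores calcium in the ER lumen. Its normalized log2 signal was 12.97 and 13.17 on the control arrays of the Derlin-1 line, against 13.59 and 13.75 in KO. The KO values were higher than those of both controls, with a gap wider than the spread within either group. The log2 difference was 0.60 (SE 0.13, n = 2 arrays per group), or 1.51-fold, and was not past the threshold over all 39981 probes tested (limma adjusted p = 0.9999). The Derlin-2 controls were at 12.97 and 13.17 and their KO arrays at 13.15 and 13.13, within the range of the controls. That log2 difference was 0.07 (SE 0.13), and it was -0.034 when Derlin-2 control replicate 1 was left out and 0.17 when replicate 2 was.

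Canx encodes calnexin, the membrane-bound lectin. Its brightest probe read 14.23 and 14.22 for Derlin-1 controls and 14.58 and 14.59 for Derlin-1 KO. The duplicates were nearly equal and the groups did not overlap, for a log2 difference of 0.36 (SE 0.09), or 1.29-fold (limma adjusted p = 0.9999). On the Derlin-2 slide the controls gave 14.38 and 14.40 and the KO arrays 14.54 and 14.49. The KO arrays were again the higher ones, by 0.12 on the log2 scale (SE 0.09, limma adjusted p = 0.999). This probe lies in the last eighth of the array's rows, and leaving those rows out took the probes called in the Derlin-2 line from 18 to 4. A second Canx probe outside those rows had its Derlin-1 controls at 14.42 and 14.13 and its KO arrays at 14.46 and 14.50. The direction was the same, with a log2 difference of 0.21 (SE 0.12) for Derlin-1 and 0.08 (SE 0.12) for Derlin-2. The Derlin-1 value of this probe was 0.063 without Derlin-1 control replicate 2 and 0.35 without Derlin-1 control replicate 1.

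The difference between the lines was itself fitted for both lectins. For Calr the Derlin-1 effect exceeded the Derlin-2 effect by 0.53 on the log2 scale (SE 0.18, 95% interval 0.09 to 0.98, limma adjusted p = 0.795). For Canx it did so by 0.24 (SE 0.13, 95% interval -0.07 to 0.55, limma adjusted p = 0.872). Neither difference between the lines passed the threshold.

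**Figure D1:**
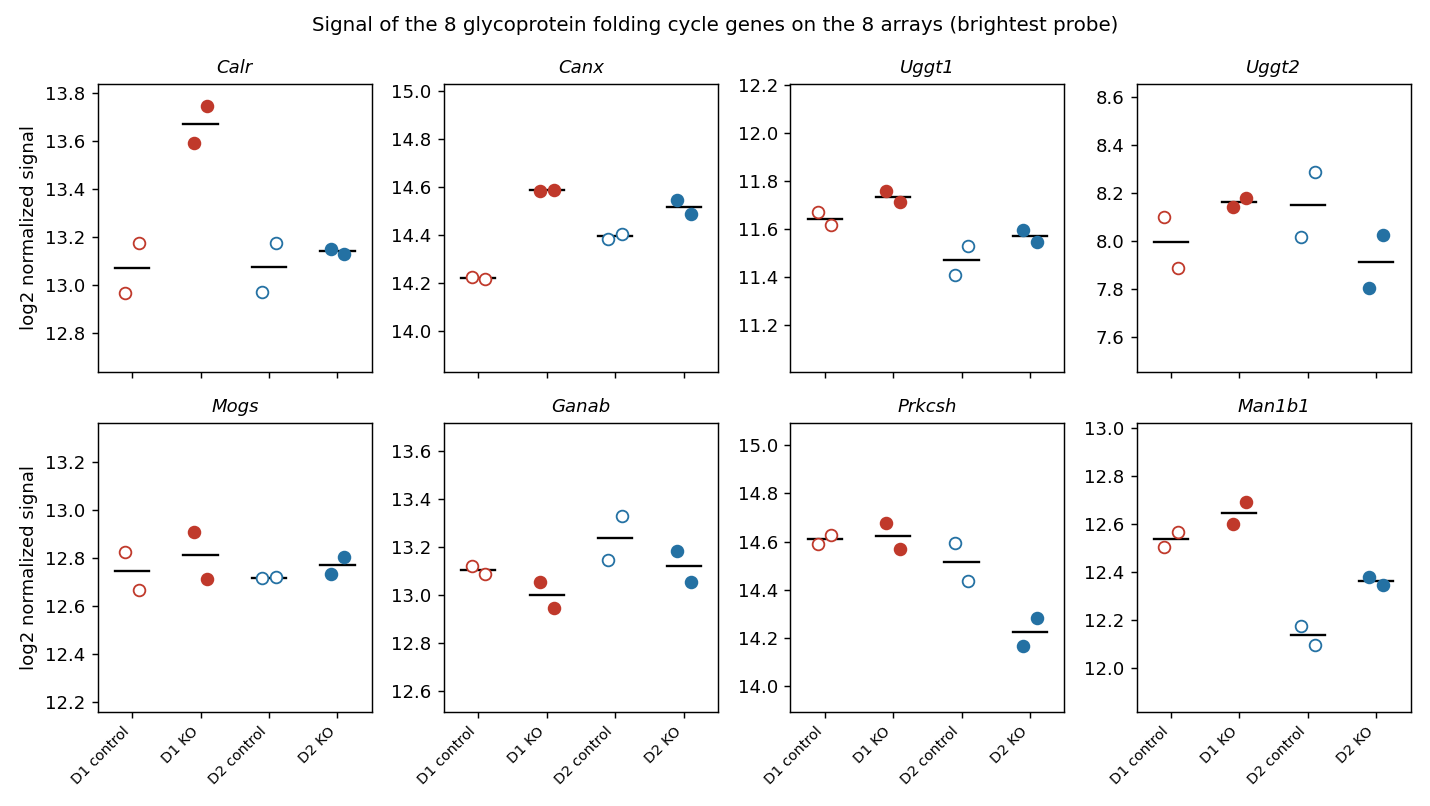
Normalized log2 signal (y axis) of the brightest probe of each of the 8 genes on each array, with Derlin-1 (D1) and Derlin-2 (D2) groups on the x axis, open circles for controls, filled circles for KO and a bar at each group mean. Every panel spans the same log2 range. The Derlin-1 KO arrays of Calr, at 13.59 and 13.75, and of Canx, at 14.58 and 14.59, sit clear of their controls, and those of Mogs and Prkcsh overlap theirs.

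The folding sensors came next. Uggt1 encodes the main UDP-glucose:glycoprotein glucosyltransferase, and its brightest probe read 11.67 and 11.62 in Derlin-1 controls against 11.76 and 11.71 in Derlin-1 KO. For Derlin-2 the values were 11.41 and 11.53 for controls and 11.60 and 11.55 for KO arrays. Both KO groups lay just above their controls, with log2 differences of 0.09 (SE 0.10) and 0.10 (SE 0.10) of about 1 standard error each. A second Uggt1 probe, in the last eighth of the array's rows, gave -0.02 and 0.02 in the lines. Another was well above background on 0 of the 8 arrays.

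Uggt2 encodes the second UGGT, and it was read by 5 kept probes. The brightest read 8.10 and 7.89 for Derlin-1 controls and 8.14 and 8.18 for Derlin-1 KO. On the Derlin-2 slide it read 8.01 and 8.29 on the controls and 7.80 and 8.02 on the KO arrays. The Derlin-1 KO arrays thus lay above both controls, and the Derlin-2 KO arrays overlapped theirs from below. The log2 differences were 0.17 (SE 0.15) and -0.24 (SE 0.15), and the difference between them was 0.40 (SE 0.21, limma adjusted p = 0.871).

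All 5 Uggt2 probes had both Derlin-1 KO arrays above both controls, with log2 differences from 0.17 to 0.41. Those probes read the same RNA on the same arrays and are not independent of each other. Probe A_52_P27003 among them lies in the last eighth of the array's rows. For Derlin-2, 4 of the 5 were below 0, from -0.43 to 0.03. Of the 5, probe A_52_P398099 had the widest contrast, with Derlin-1 controls at 7.21 and 7.42, Derlin-1 KO arrays at 7.79 and 7.63, Derlin-2 controls at 7.38 and 7.61, and Derlin-2 KO arrays at 6.90 and 7.23. Its KO arrays were above the controls in one line and below them in the other. The log2 differences were 0.40 and -0.43 (SE 0.16 each), and the lines differed by 0.82 (SE 0.23, limma adjusted p = 0.725).

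The glucosidases release the protein from the lectins and open its way to them. Mogs encodes glucosidase I, and its single probe read 12.82 and 12.67 for Derlin-1 controls and 12.91 and 12.71 for Derlin-1 KO. The Derlin-2 controls were at 12.72 and 12.72 and the Derlin-2 KO arrays at 12.74 and 12.80. The Derlin-1 groups overlapped, and the log2 differences were 0.07 (SE 0.12) and 0.05 (SE 0.12).

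Ganab encodes the catalytic α subunit of glucosidase II. Its brightest probe read 13.12 and 13.09 in Derlin-1 controls and 13.05 and 12.95 in Derlin-1 KO. It was the one member whose brightest probe was lower on both Derlin-1 KO arrays, with a log2 difference of -0.10 (SE 0.11). The Derlin-2 controls were at 13.15 and 13.33 and the KO arrays at 13.18 and 13.06, overlapping, for -0.12 (SE 0.11). The 4 Ganab probes disagreed in the Derlin-1 line, from -0.22 to 0.36, and their mean was 0.03 on the log2 scale, so no direction is given for the gene. The probes at both ends of that range lie in the last eighth of the array's rows. Those outside it, the brightest and A_55_P2731471, stood at -0.10 and 0.10 and also disagreed in sign.

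Prkcsh encodes the β subunit of glucosidase II, which holds the enzyme in the ER. Its values on the Derlin-1 slide, 14.59 and 14.63 for controls and 14.68 and 14.57 for KO arrays, overlapped. On the Derlin-2 slide the controls were at 14.59 and 14.44 and the KO arrays at 14.17 and 14.28, below both controls. The log2 difference was 0.01 (SE 0.11) for Derlin-1 and -0.29 (SE 0.11) for Derlin-2, the latter with a limma adjusted p = 0.869. The lines differed by 0.30 (SE 0.15, limma adjusted p = 0.871).

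Man1b1 encodes the ER mannosidase I that starts the trimming leading to ERAD. It read 12.50 and 12.57 in Derlin-1 controls and 12.60 and 12.69 in Derlin-1 KO. The Derlin-2 controls were at 12.18 and 12.10 and the Derlin-2 KO arrays at 12.38 and 12.34. Both KO groups were above their controls, by 0.11 (SE 0.10) and 0.23 (SE 0.10) on the log2 scale, the second with a limma adjusted p = 0.923. A dimmer second probe, in the last eighth of the array's rows, was well above background on 6 of the 8 arrays. Its Derlin-1 value rests on 1 KO array because the spot was marked as an outlier on the other. This second probe stood at -0.58 (SE 0.36) for Derlin-1 and 0.57 (SE 0.29) for Derlin-2, so the 2 probes disagreed in sign in the Derlin-1 line.

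**Figure D2:**
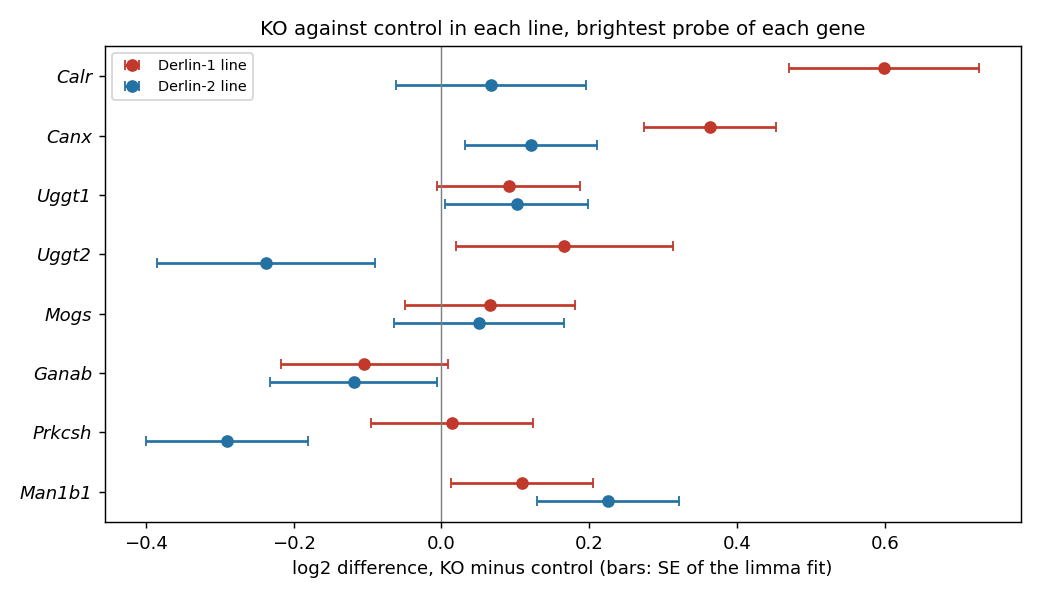
Log2 difference between KO and control (x axis) for the brightest probe of each gene (y axis), in red for the Derlin-1 line and blue for the Derlin-2 line, with bars of 1 standard error from the limma fit. Calr and Canx lie farthest to the right in the Derlin-1 line, at 0.60 and 0.36, and Prkcsh and Uggt2 farthest to the left in the Derlin-2 line, at -0.29 and -0.24.

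Counted over the cycle, 0 of the 8 genes passed limma's adjusted p threshold in the Derlin-1 line, beside 0 of all 39981 probes tested (0%). For Derlin-2 it was also 0 of 8, beside 18 of 39812 probes (0.0452%), and for the difference between the lines 0 of 8, beside 3 of 39810 (0.00754%). Without adjustment, 4.69%, 5.51% and 5.85% of probes had a limma p under 0.05 in these comparisons, 1874 of them in the Derlin-1 line. At an unadjusted limma p under 0.05, 2 members were counted in the Derlin-1 line, Calr and Canx, beside 4.25% of all genes by their brightest probe. The Derlin-2 line had 1, Prkcsh, beside 4.64% of genes, and the difference between the lines had 1, Calr, beside 4.5%.

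On the Derlin-1 slide 7 of 8 members had a higher mean in KO, where 44% of all genes did. Both KO arrays were above both controls for 5 of them, Calr, Canx, Uggt1, Uggt2 and Man1b1, beside 16.2% of all genes, and below both for 1, Ganab, beside 17.9%. The median log2 difference of the members was 0.10, and that of all genes was -0.02. On the Derlin-2 slide 5 of 8 had a higher mean, beside 52.3% of genes, and the median was 0.06, beside 0.01. Canx, Uggt1, Mogs and Man1b1 had both KO arrays above both controls there, and Prkcsh had both below, beside 17.9% and 14.6% of all genes. Canx, Uggt1 and Man1b1 were above in both lines, as were 2.85% of all genes. The Derlin-1 difference, taken with its sign, was above the Derlin-2 difference for 6 of 8 members, beside 43.9% of genes. That count does not compare the sizes of the differences. The Derlin-1 median moved to 0.05 when the mean of all kept probes of each gene replaced the brightest, and to 0.062 without Derlin-1 control replicate 2. The Derlin-2 median was 0.0043 without Derlin-2 control replicate 1 and 0.10 with 75th percentile scaling, where those of all probes were 0.017 and 0.019.

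**Figure D3:**
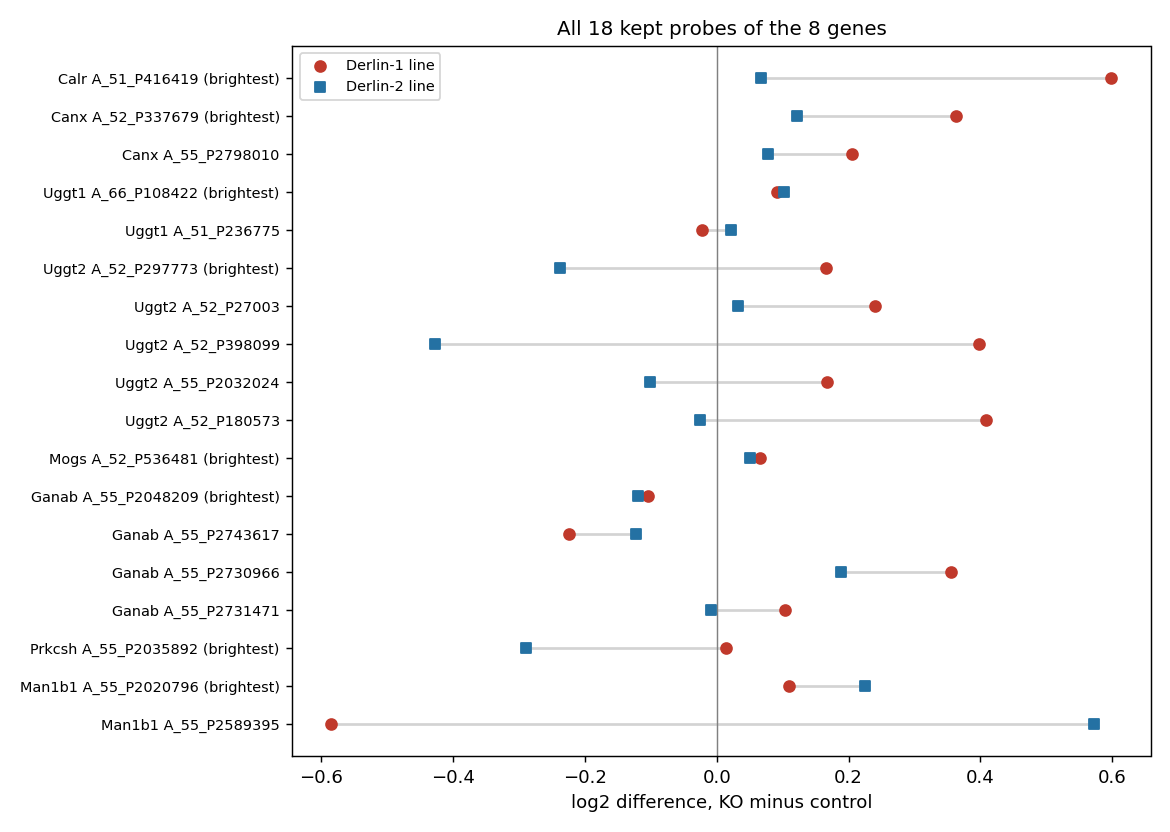
Log2 difference between KO and control (x axis) for each of the 18 kept probes (y axis, grouped by gene), with a red circle for the Derlin-1 line, a blue square for the Derlin-2 line and a grey line between them. The 5 Uggt2 probes all lie right of 0 in the Derlin-1 line, from 0.17 to 0.41, and 4 of them left of 0 in the Derlin-2 line, and the 4 Ganab probes fall on both sides of 0.

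Members did not move as one across the arrays. After each array's value was centred on the mean of its line, the brightest probes of Calr and Canx correlated at 0.91 over the 8 arrays, which share 2 slides and the KO contrast. With the mean of the 8 genes, Calr correlated at 0.90 and Canx at 0.88, Uggt1 at 0.63 and Uggt2 at 0.60. Mogs stood at 0.42, Man1b1 at 0.23, Prkcsh at 0.02 and Ganab at -0.22. Each member is part of that mean. Of the 28 pairs of members, 17 had a positive correlation.

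The genes outside the cycle whose brightest probes followed the mean of the 8 members most closely over the 8 arrays, of 19636 compared, were Ednra with r = 0.97, Fn3k, Gm29682 and Coch with r = 0.96 each, and Rpl30 with r = 0.95. Ednra is an endothelin receptor and Rpl30 a protein of the large ribosomal subunit. The probe of Gm29682 was well above background on 3 arrays, all of the Derlin-2 line, so its Derlin-1 values are those of a dim probe. All 5 had both Derlin-1 KO arrays above both controls and overlapping groups in the Derlin-2 line. The members' mean has that pattern and the 5 were picked for likeness to it, so this follows from the choice. With 8 arrays and this many genes compared, high values of r occur among many genes.

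Genes that share the element of Calr and Canx were read as a list defined by the promoter sequence. The 37 promoters with a full ERSE belonged to 35 symbols, of which 21 had a kept probe. In the Derlin-1 line 16 of the 21 had a higher mean in KO, 10 had both KO arrays above both controls (Olfr59 lacked a value on 1 of those arrays), and the median log2 difference was 0.14, beside 44%, 16.2% and -0.02 for all genes. An unadjusted limma p under 0.05 was reached by 6 of the 21, namely Calr, Canx, Hspa5, Derl3, Hsp90b1 and Pdia6, and an adjusted p under 0.05 by 0. Calr and Canx, which prompted the list, are themselves among the 21 and count in the 16, the 10 and the 6. These counts are thus not independent of the members' own values. For Derlin-2, 13 of the 21 had a higher mean, beside 52.3% of all genes, with a median of 0.05, beside 0.01. There 8 had both KO arrays above both controls and 3 had both below, beside 17.9% and 14.6% of all genes. An unadjusted p under 0.05, which 4.25% of all genes reached for Derlin-1 and 4.64% for Derlin-2, was found here in 6, namely Hspa5, Derl3, Pdia6, Dnajc3, Calr4 and Ptgdr2, the last of them lower in KO. Ptgdr2 was well above background only on the 2 Derlin-2 control arrays and passed the filter through them alone. Its place among these 6, and among the 3 with both KO arrays below, was favoured by that filter. With 75th percentile scaling the medians of the 21 were 0.28 and 0.10, where those of all probes were 0.039 and 0.019. Without 1 array the medians of the 21 ranged from 0.12 to 0.32 (highest without Derlin-1 control replicate 2) and from 0.037 to 0.13 (highest without Derlin-2 control replicate 2).

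Hspa5 had its Derlin-1 controls at 13.97 and 13.83 and its Derlin-1 KO arrays at 14.58 and 14.52, and its Derlin-2 controls at 13.79 and 14.02 and Derlin-2 KO arrays at 14.36 and 14.41. Both KO groups were above their controls, by 0.65 and 0.47 on the log2 scale (SE 0.12 each, limma adjusted p = 0.9999 and 0.591). Derl3, the remaining Derlin, was higher by 2.12 and 1.21 (SE 0.28 each, limma adjusted p = 0.927 and 0.558). Hsp90b1 encodes the ER chaperone GRP94 and Pdia6 an ER disulfide isomerase, and their names, like those of the other genes of this list, were picked out after their values were seen. Hsp90b1 stood at 0.48 in the Derlin-1 line but 0.03 for Derlin-2, and Pdia6 at 0.55 and 0.44. The difference between the lines for Hsp90b1 was 0.45 (SE 0.18, limma adjusted p = 0.851), which did not pass the threshold.

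**Figure D4:**
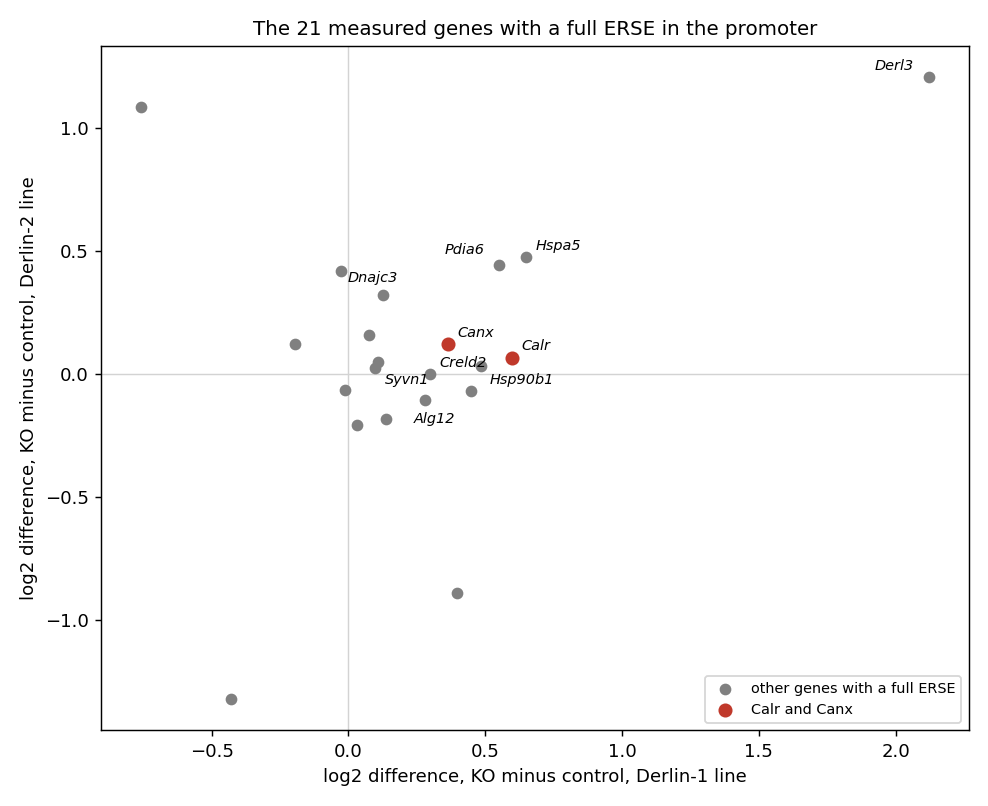
Log2 difference between KO and control in the Derlin-1 line (x axis) against that in the Derlin-2 line (y axis) for the 21 measured genes whose promoter holds a full ERSE, with Calr and Canx in red and other genes in grey, those with both Derlin-1 KO arrays above both controls labelled. Derl3 lies at 2.12 and 1.21, Hspa5 and Pdia6 are above 0 in both lines, and Calr, Canx and Hsp90b1 lie to the right near the horizontal line at 0.

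The wider pathway list held 26 genes. These were partners of the lectins, genes of glucose addition or mannose trimming, lectins of ERAD or export, and genes of cytosolic sugar removal. Calr3, a testis calreticulin, had no kept probe, and 25 genes were measured. In the Derlin-1 line 8 were higher and 17 lower on the mean, where 44% of all genes were higher. The median log2 difference was -0.06, and it was 0.023 without Derlin-1 control replicate 1, where that of all probes was 0.015. An unadjusted limma p under 0.05 was reached by 0, beside 4.25% of all genes. For Derlin-2, 11 were higher and 14 lower, where 52.3% of all genes were higher. The median was -0.03, and it was 0.023 with 75th percentile scaling, where that of all probes was 0.019. Here 1 gene, Os9, reached an unadjusted limma p under 0.05, beside 4.64%. None of the 25 passed the adjusted threshold in either line, and a full ERSE was found in 0 of the 21 listed genes that had a promoter in the table.

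Among partners of the lectins, Pdia3, which encodes the disulfide isomerase ERp57 that works bound to calnexin and calreticulin, had the highest difference of the list in the Derlin-1 line. Its Derlin-1 controls were at 11.54 and 11.54 and its KO arrays at 11.81 and 11.83, apart by 0.28 on the log2 scale (SE 0.12). The Derlin-2 controls, at 10.93 and 11.20, overlapped the KO arrays at 11.23 and 11.11, for 0.10 (SE 0.12). The lines differed by 0.18 for Pdia3 (SE 0.17, limma adjusted p = 0.948), and by 0.042 when Derlin-2 control replicate 2 was left out and 0.31 when replicate 1 was. The Derlin-1 difference, taken with its sign, was above the Derlin-2 difference for 12 of the 25 genes, beside 43.9% of all genes.

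Os9 encodes an ERAD lectin that recognises trimmed glycans. The Derlin-2 controls were at 13.53 and 13.52 and the Derlin-2 KO arrays at 13.24 and 13.15, below both controls with a gap wider than the spread within the groups. Its log2 difference was -0.33 (SE 0.09, limma adjusted p = 0.672). In the Derlin-1 line controls at 13.45 and 13.42 and KO arrays at 13.46 and 13.50 gave 0.04 (SE 0.09). As for Prkcsh, the Derlin-2 KO arrays were the low ones, and the lines differed by 0.37 for Os9 (SE 0.13, limma adjusted p = 0.810).

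Of the mannosidases, Man1a, which trims mannose in the Golgi, stood at 0.26 for Derlin-1 and 0.20 for Derlin-2 (SE 0.17 each). Man1c1, another Golgi mannosidase, stood at 0.20 and -0.23 (SE 0.16 each). Edem2, which acts early in mannose trimming for ERAD, had the lowest value in the Derlin-1 line, -0.44, with -0.25 for Derlin-2 and an SE of 0.31 that was wider than for the other genes named here. Manea, a Golgi endomannosidase that removes glucosylated mannose, was at -0.14 and -0.06 (SE 0.10 each), and Lman2l, a lectin of export from the ER, at -0.18 and -0.09 (SE 0.11 each). Alg6 and Alg10b, glucosyltransferases that build the glucose tip, were at -0.06 and -0.10 for Derlin-1 and at 0.17 and 0.13 for Derlin-2 (SE 0.11 each). None of these differences exceeded 2 standard errors.

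**Figure D5:**
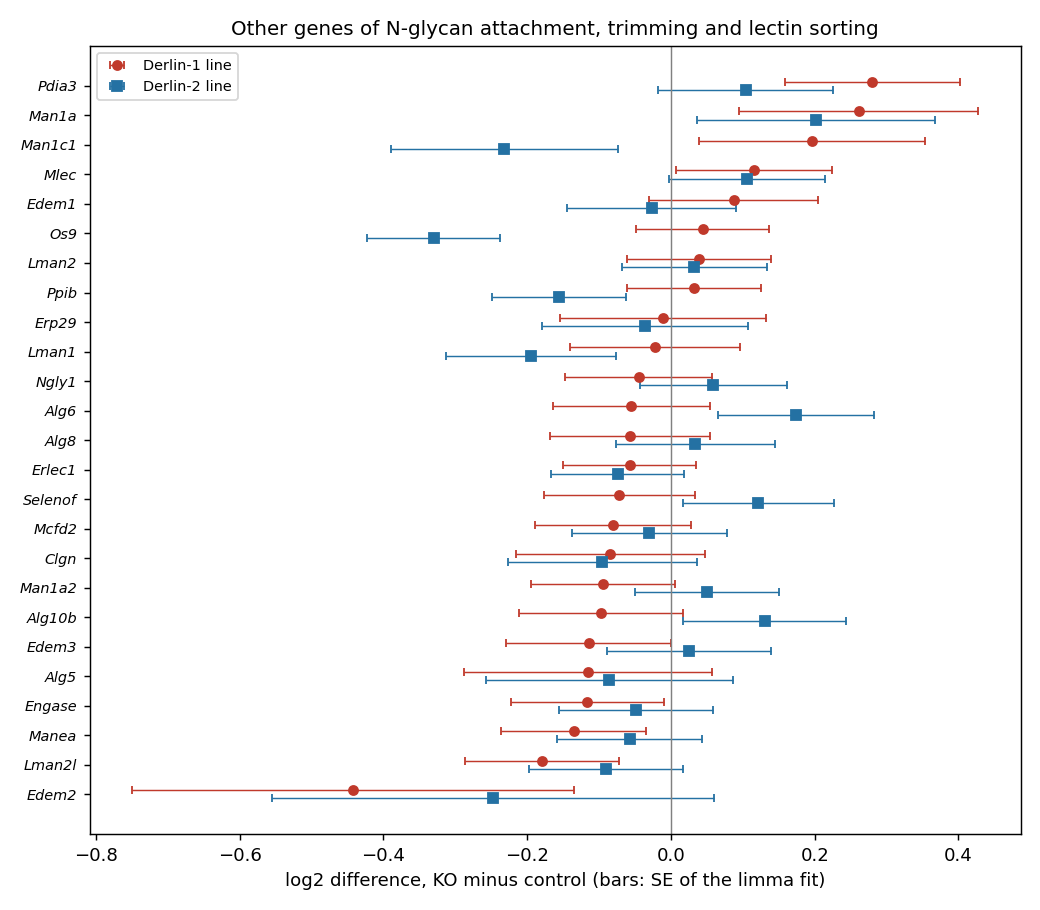
Log2 difference between KO and control (x axis) for the 25 measured genes of the wider pathway list (y axis, ordered by the Derlin-1 line), with red circles for the Derlin-1 line, blue squares for the Derlin-2 line and bars of 1 standard error from the limma fit. Pdia3 is farthest right in the Derlin-1 line at 0.28, Edem2 farthest left at -0.44, and Os9 at -0.33 is the lowest in the Derlin-2 line.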

How the data were processed

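Total RNA of the DG was labelled with Cy3 and hybridised to 8 Agilent SurePrint G3 mouse arrays, and the deposited scanner files hold spot intensity from Agilent Feature Extraction 10.7.1.1, per the labels. The authors also deposited a log2 table for each line, quantile-normalized per the study's methods, and the log2 values were used as an alternative. Those tables also hold the authors' fold changes, which were not used. The methods give signals as measured in duplicate and name a gene set enrichment analysis, but no test of single genes.

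From the background-corrected signal of the scanner files, control spots were left out, flagged outlier spots were set to missing, a floor of 1 was set before taking log2, the 8 arrays were brought to common quantiles, and the spots of a probe were averaged. No spot was saturated. Probes well above background on both arrays of at least 1 group were kept, 40001 of 56605. A model of 4 group means was fitted with limma 3.58.1 in R 4.3.3 (lmFit, eBayes, 4 residual degrees of freedom), two-sided, with Benjamini-Hochberg adjustment over all probes and a threshold of 0.05. An exact permutation of 2 against 2 arrays cannot go below p = 0.333. The procedure was tested on simulated data.

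Probes were named from the deposited tables, and 67 with a date-like symbol stayed unnamed. The brightest kept probe over the 8 arrays stood for a gene, and levels of different probes were not compared. Array probe signal gives no counts, and the number of arrays limits the precision. Of the wider list, genes with an unadjusted p under 0.05 in either line and the 3 highest and 3 lowest in each line were named. Derl1, Derl2, Derl3 and Hspa5 were named as context, and the 5 genes most correlated with the members' mean as the nearest patterns. Members and lists were chosen with earlier results of these data known. Alternatives were 75th percentile scaling, normexp with an offset of 50 on the median signal and median background (the mean signal was not analysed here), the deposited values, other filters, other fits, leaving out arrays and leaving out rows. The genes with a full ERSE, the other probes of the members and the context genes were recomputed under alternatives chosen after seeing the data. Sequences are from RefSeq, GRCm38.p6, and all 8 members matched by symbol. Marker lists of 8 cell types were read as means, and 0 of their genes passed the threshold in either line.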

Additional observations from a re-analysis of the deposited data

Results flagged for a closer look

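With 2 arrays in each group, no test for an outlying array was made. In 5 probes named in the report every KO array lay beyond both controls in one direction in one line and in the opposite direction in the other. Of all genes by their brightest probe, 16.2% lay above and 17.9% below both controls in the Derlin-1 line, and 17.9% and 14.6% in the Derlin-2 line. The share of all genes with opposite directions was not counted, so the 5 cannot be set against it. The log2 difference between the lines was 0.82 for Uggt2 probe A_52_P398099, 0.27 for Uggt2 probe A_55_P2032024, 0.37 for Os9, -0.32 for Derl1 and 0.71 for Derl2. In limma's test of that difference over all probes none passed the threshold, with adjusted p = 0.725, 0.871, 0.810, 0.853 and 0.531 in the same order, and their unadjusted p were 0.0113, 0.0867, 0.0283, 0.0723 and 0.00194. Derl1 and Derl2 are the genes deleted in the lines, and the Derl2 probe lies in the last eighth of the array's rows. For Uggt2 the brightest probe did not have this pattern, because its Derlin-2 groups overlapped.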

How the results depend on the processing

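Counts of called probes depended on the setting. In the Derlin-2 line 18 became 2 with normexp background correction, 29 with no filter, 2 with probes well above background on all 8 arrays, 4 without the last eighth of the rows, 0 when only the 4 arrays of that line were fitted and 0 from the deposited log2 values. For the difference between the lines 3 became 5 with 75th percentile scaling and 0 with normexp, with no filter, with probes well above background on all 8 arrays and without the last eighth of the rows. A fold change of at least 1.5 with no test counted 1856, 2263 and 4740 probes for Derlin-1, Derlin-2 and the difference. Leaving out 1 array gave 0 to 1, 4 to 55 and 0 to 21 called probes in the same order, with the highest counts without Derlin-1 control replicate 2 for the first and without Derlin-2 control replicate 1 for the others. With the replicate number within each line as a block, 0, 0 and 0 probes were called. Same-numbered arrays deviated together with a correlation of 0.27 for Derlin-1 and -0.098 for Derlin-2, so the numbers were not taken to pair the samples. In the Derlin-1 line the CA pyramidal neuron markers were nevertheless lower on replicate 1 than on replicate 2 in both groups. With 1 array of each number in every group, the replicate block cannot change a difference, only its error.

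No member passed the adjusted threshold under any alternative run. For Calr in the Derlin-1 line the smallest adjusted p was 0.447 and the difference ranged from 0.49 to 0.70, and for Canx the smallest was 0.483 and the range 0.28 to 0.41. The members' median moved to 0.050 for Derlin-1 with the mean of all kept probes, to 0.10 for Derlin-2 with 75th percentile scaling, and to 0.015 for the difference without the last eighth of the rows, where the brightest Canx probe lies. With 75th percentile scaling the Derlin-2 median of all probes was 0.019. Leaving out 1 array gave medians of 0.062 to 0.13, 0.0043 to 0.093 and 0.10 to 0.18.

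Signs of some differences turned. With normexp these were the difference between the lines for Uggt1 (0.060), Mogs (-0.038) and Ganab (-0.021), Prkcsh for Derlin-1 (-0.085), and for Derlin-2 Uggt1 probe A_51_P236775 (-0.024) and Uggt2 probe A_52_P180573 (0.043). With 75th percentile scaling they were the difference between the lines for Mogs (-0.042) and Ganab (-0.021) and Uggt1 probe A_51_P236775 for Derlin-1 (0.00018). With the mean of all kept probes they were Ganab (0.033) and Man1b1 (-0.26, from 0.11) for Derlin-1. From the deposited values Man1b1 probe A_55_P2589395 stood at 2.89 for Derlin-1, against -0.58, since they include the spot marked as an outlier. Leaving out 1 array turned the sign for Derlin-1 of Mogs (-0.032 to 0.16), Prkcsh (-0.041 to 0.069), Uggt1 probe A_51_P236775 (-0.097 to 0.053), Ganab probe A_55_P2731471 (-0.023 to 0.23) and Alg6 (-0.14 to 0.031). For Derlin-2 it turned Calr (-0.034 to 0.17), Pdia3 (-0.030 to 0.24), Manea (-0.12 to 0.0072), Edem2 (-0.25 in the report, -0.67 to 0.17), Uggt2 probe A_52_P27003 (-0.37 to 0.43) and Uggt2 probe A_52_P180573 (-0.29 to 0.24), and for the difference between the lines Uggt1 (-0.071 to 0.049), Mogs (-0.083 to 0.11) and Ganab (-0.078 to 0.11). The cause of the other turns was not tested.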
